A study of Mus musculus with 48 samples.

Results

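The genes described here are 46 mouse genes of the lysosome, in the groups of membrane proteins, export and transport proteins, hydrolases, subunits of the proton pump, sorting receptors and transcription factors. They were listed by name with earlier results of these data known, so the shares of them called below are a description. The genes were matched by symbol to the gene IDs of the count tables. Those with 10 or more counts in at least 4 libraries of a table were kept. Of the 46, 44 were kept on day 4, 45 on days 5, 6 and 9 and 45 on day 7, among 39017 genes in each table. Tfeb was not kept in any table and Sgsh was not kept on day 4. The lysosome is the acidic compartment in which cells break down proteins, glycans and lipids delivered by endocytosis and autophagy. A multi-subunit proton pump, the V-ATPase, keeps it acidic, soluble hydrolases reach it through mannose 6-phosphate receptors, and transporters in its membrane return cystine, sialic acid and cholesterol to the cell. In quiescent neural stem cells of the adult brain, lysosomes hold protein aggregates and growth factor receptors, and lysosome activity is known to differ between resting and dividing stem cells.

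RNA was read by SMART-seq2, which makes full-length libraries that do not keep the strand, in 48 libraries of adult dentate gyrus neural stem cells from mice aged 7 to 8 weeks. Every culture, WT as well as KO, carried Hopx-CreERT2, Setd1a fl/fl (Setd1a encodes a methyltransferase of histone H3 lysine 4) and H2B-GFP, and was held in quiescence with BMP4 and FGF2. KO cultures received Lenti-Cre-GFP and WT cultures Lenti-GFP, and 4 libraries of each were made on days 4, 5, 6 and 9. On day 7, 4 libraries each were made of KO and WT cultures given ORY-1001 (ORY), which inhibits LSD1, a demethylase of histone H3, and of KO and WT cultures given its solvent DMSO. The study counts days from the start of BMP4 and FGF2 and added the virus, and ORY with it, later. A day is therefore not the time since the virus. The virus need not reach all cells of a culture, and the deletion, the viral Cre and the H2B-GFP that Cre switches on cannot be told apart in any comparison of KO with WT.

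The total count per library was 5811077 to 8396175 on day 4, 3137352 to 12374735 on days 5, 6 and 9 and 4265876 to 20588555 on day 7. In all 6 groups of days 5, 6 and 9, libraries 1 and 3 and libraries 2 and 4 lay closer to each other (at most 2.5 in chi-square over degrees of freedom) than any other pair (3.03 or more). Of the other 6 groups KO + DMSO on day 7 showed the same order, less clearly (at most 3.47, against 3.78 or more). In WT + DMSO on day 7, libraries 1 and 2 (3.80) and 3 and 4 (2.97) lay closest instead, against 5.95 or more. The same pairs lay closest in KO + ORY (2.69 and 2.83, against 4.03 or more). Whether these pairs are technical is not known, and results of day 7 were not repeated with summed libraries. If the pairs of days 5, 6 and 9 are technical the number of replicates there is 2, and results of those days are given also with the 2 libraries of each such pair summed. Setd1a had 0 to 5.41 CPM (counts scaled to a common library size) and was called in 0 of the 13 comparisons by edgeR (an unadjusted p under 0.05 in 3), and its fitted log2 fold change of KO against WT was above 0, against the direction of a deletion, in 5 of the 6 comparisons of the genotypes (-0.42 to 0.77). Counts per gene this low cannot show whether the gene was deleted, so the labels KO and WT could not be checked from them. The groups are named by the labels alone. The study reports, from immunostaining, that levels of the targeted protein were diminished in infected cells expressing Cre. Gt(ROSA)26Sor, the locus of the reporter, was lower in KO than in WT in all 6 comparisons of the genotypes (log2 fold change -0.54 to -0.26, adjusted p at most 0.004). Among markers of neural stem cells and astroglia, Sox9 (1170.0 to 3959 CPM), Vim (2505 to 6529 CPM) and Fabp7 (1312 to 7707 CPM) were abundant. Nes had 7.23 to 31.9 CPM and Hopx 6.77 to 22.4 CPM, while Hes5 stayed at or under 1.35 CPM and at 0 in 12 libraries. Of 12 microglia markers, a cell type rich in lysosomal mRNA, C1qb and C1qc were at 0 in all 48 libraries, and the 12 summed to at most 7.56 CPM in any library, most of it P2ry12.

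Per length, the membrane proteins Laptm4a and Cd63 led, while Laptm4b (58.3 CPM per kb of exon) and Scarb2 (7.44) of the same group lay lower. Length here was that of all annotated exons of a gene merged, whichever transcripts were expressed, so the order depends on the annotation. In CPM without length, Cd63 (2308 to 4435 CPM) lay above Laptm4a (1143 to 2558 CPM) in every library. Laptm4a, a lysosomal transmembrane protein, had a median over the 12 group means of 947 CPM per kb of exon, and Cd63, a tetraspanin of late endosomes and lysosomes, had 818. Next came Atp6v1g1, a subunit of the peripheral V1 part of the pump, with 245 CPM per kb, followed by Lamp1 with 210 and Lamp2 with 156, the main glycoproteins of the lysosomal membrane. The group means of Laptm4a (683 to 1400 CPM per kb) and Cd63 (654 to 1105) overlapped, as did those of Atp6v1g1 (193 to 392) and Lamp1 (154 to 252), while Cd63 lay above Atp6v1g1 without overlap. Among hydrolases Ppt1, which removes palmitate from proteins, was highest at 111 CPM per kb (group means 77.6 to 238), and at the low end lay Gaa, the glycogen-degrading acid alpha-glucosidase, at 1.41. The level of Atp6v0c, the proteolipid whose ring carries protons through the membrane part (V0), spanned 6.07 to 25.2 CPM per kb over the groups, and that of Tfe3 0.725 to 1.17. The lowest were Sgsh, a heparan sulfate sulfamidase, at 0.314 (0.226 to 0.419) and Tfeb at 0.0978 (0.0564 to 0.200) CPM per kb, and the group means of Tfe3, Sgsh and Tfeb did not overlap. The 3 tables were scaled separately, so these levels across days are a description.

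**Figure D1:**
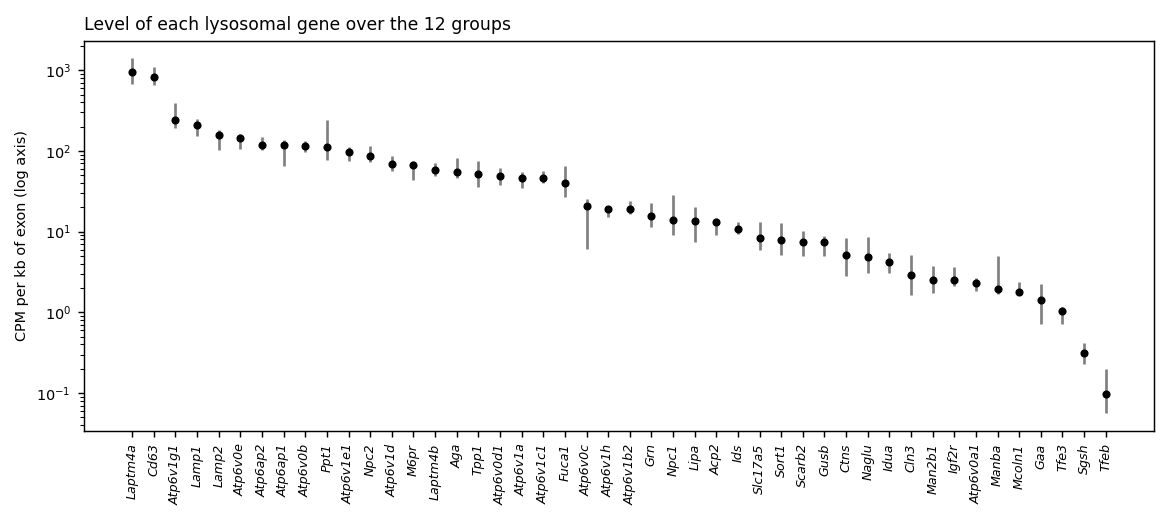
Level of each of the 46 lysosomal genes in CPM per kb of all annotated exons on a log axis, with the point at the median and the line over the range of the 12 group means (4 libraries each). The order runs from Laptm4a at 947 to Tfeb at 0.0978 CPM per kb, and Ppt1 and Atp6v0c have some of the longest lines.

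Tfeb and Tfe3, helix-loop-helix factors that bind the palindrome GTCACGTGAC and its core TCACGTGA in promoters of lysosomal genes, had few reads. Tfeb had 0 to 16 counts per library and 0 to 2.07 CPM over the 48 libraries, so that no difference in it was detectable at this depth. On day 9 it had 0.615, 0.327, 0.454 and 0.309 CPM in KO libraries, against 0.119, 0.413, 0.651 and 0.424 CPM in WT libraries, and on day 7 0.218, 1.10, 0.304 and 0.569 CPM in KO + DMSO, against 0.308, 0.530, 0.242 and 1.16 CPM in WT + DMSO. Under ORY it had 0, 0.604, 0.518 and 0.380 CPM in KO, against 0.280, 0, 0.775 and 0.871 CPM in WT. These ranges overlapped in every case. On days 4, 5 and 6 the libraries of KO spanned 0.251 to 1.08, 0.471 to 1.22 and 0 to 0.961 CPM, against 0.694 to 2.07, 0 to 0.728 and 0.521 to 1.11 CPM in WT, again with overlap.

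Tfe3 passed in 1 of 6 comparisons of KO with WT. On day 9 it had 8.86, 9.80, 11.04 and 12.04 CPM in KO libraries, against 8.24, 5.64, 6.61 and 6.36 CPM in WT libraries. Every KO library lay above every WT library, with a log2 fold change of 0.64 ± 0.18, adjusted p = 0.015, although with summed libraries the adjusted p was 0.20. On the other days KO and WT libraries overlapped, with 9.21, 8.49, 8.61 and 10.5 CPM in KO against 8.15, 11.5, 10.9 and 8.80 CPM in WT on day 4. On day 5 it had 7.81, 7.92, 8.78 and 8.88 CPM in KO and 8.50, 6.22, 6.99 and 7.98 CPM in WT. On day 6 Tfe3 had 6.31, 8.98, 5.59 and 7.95 CPM in KO and 9.34, 8.85, 7.68 and 7.23 CPM in WT. The 4 groups of day 7 also overlapped, with 10.6, 9.46, 10.9 and 8.87 CPM in KO + ORY, 9.37, 11.8, 12.3 and 10.1 CPM in KO + DMSO, 6.86, 9.07, 11.6 and 13.7 CPM in WT + ORY and 12.2, 8.82, 11.97 and 7.54 CPM in WT + DMSO. ORY in KO gave Tfe3 a log2 fold change of -0.14 ± 0.19, adjusted p = 0.62.

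The binding sequence of these factors was looked for, on both strands, in RefSeq promoters (GRCm38.p6, 250 bases before to 50 bases after each start), which were found for 37 of the 46 genes and not for Aga, Atp6v1b2, Atp6v1c1, Atp6v1g1, Atp6v1h, Laptm4b, M6pr, Npc1 and Sort1. TCACGTG or its reverse complement CACGTGA stood in 11 of the 37 (29.7%), against 4.29% of 27025 genes in the table, and the longer core TCACGTGA, of which TCACGTG is part, in 6 (16.2%), against 1.12%. The full GTCACGTGAC, which contains the core, stood in 2 (5.41%), against 0.37%. The 6 genes with the core are shown because those of them called at day 7, given below, ran in different directions. Mcoln1 and Atp6v0e were called in neither comparison given there. Each is printed with 30 bases on the gene's own strand and the core or the full palindrome in capitals.
Cln3, chr7:126583340-126583369 (minus strand): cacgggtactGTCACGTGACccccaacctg
Igf2r, chr17:12769696-12769725 (minus strand): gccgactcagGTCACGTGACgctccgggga
Igf2r, chr17:12769737-12769766 (minus strand): gaacgaggacgTCACGTGAgcaggaggcgg
Mcoln1, chr8:3500462-3500491 (plus strand): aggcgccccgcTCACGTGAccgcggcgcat
Atp6v0d1, chr8:105566050-105566079 (minus strand): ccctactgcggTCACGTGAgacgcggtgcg
Atp6v0e, chr17:26676387-26676416 (plus strand): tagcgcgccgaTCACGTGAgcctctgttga
Atp6v1a, chr16:44139373-44139402 (minus strand): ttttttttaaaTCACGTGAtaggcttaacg
The first capital lay 123 bases before the start in Cln3, 9 and 49 in Igf2r, 46 in Mcoln1, 4 in Atp6v0d1 and 132 in Atp6v1a, and at base 3 after it in Atp6v0e. These matches are letters in a window, and no binding was measured.

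In bulk RNA, fewer cells of a kind and less RNA per cell cannot be told apart, and this holds for every value that follows. Each comparison was tested with edgeR's quasi-likelihood F test over all genes of its table, and a gene is called where the Benjamini-Hochberg adjusted p over all genes tested was under 0.05. Shares of all genes, given beside the counts of lysosomal genes, cover genes of every level that was tested. No share was taken among genes of like level, and the share called can depend on level. Values in parentheses after a gene name are log2 fold changes, errors after ± are their SE, with n = 4 libraries in each group. The alternatives tried were RLE size factors, scaling by library size only, no filter or a stricter filter on low counts, DESeq2, a correction for GC content and length, a block for the replicate number, a fit to the 2 groups compared alone, leaving out each library and, for days 5, 6 and 9, summed libraries. Over the 13 comparisons, 160 pairs of gene and comparison were called and none changed direction in an alternative that was run.

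**Figure D2:**
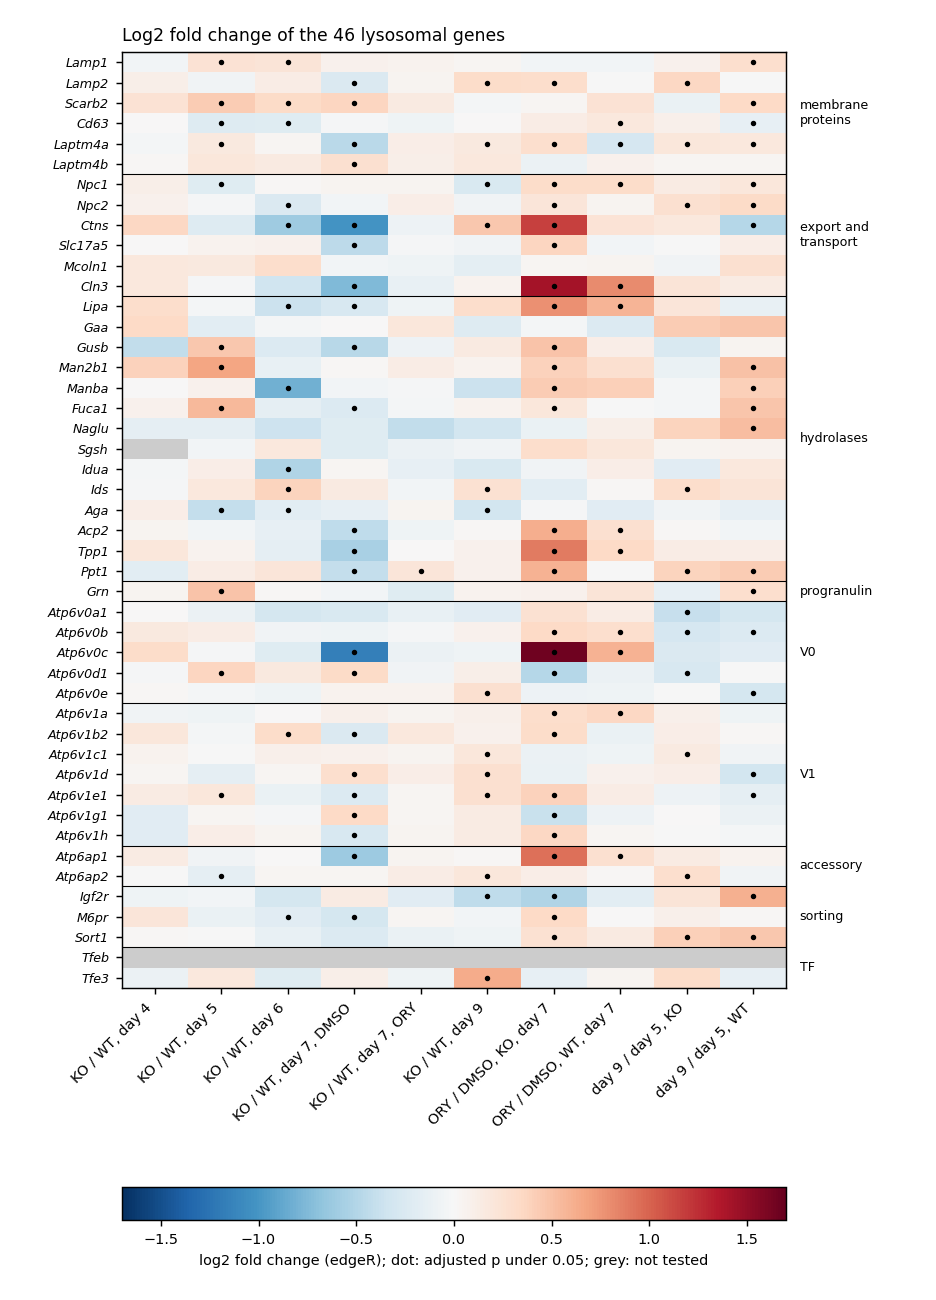
Log2 fold change of the 46 lysosomal genes (rows, grouped by role) in 10 comparisons (columns), from blue (lower) to red (higher), where a dot marks an adjusted p under 0.05 and grey a gene not tested. The 5 largest values are on day 7, red for ORY against DMSO in KO in Atp6v0c, Cln3 and Ctns and blue for KO against WT under DMSO in Atp6v0c and Ctns.

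**Figure D3:**
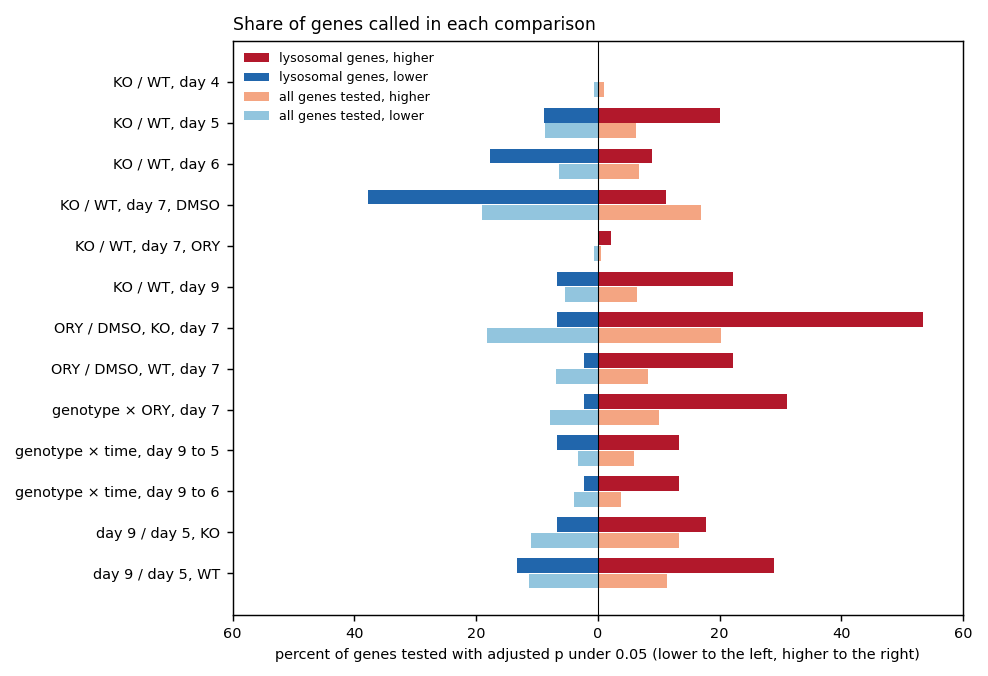
Percent of lysosomal genes and of all genes tested that had an adjusted p under 0.05, lower to the left and higher to the right, in the 13 comparisons. Lysosomal genes higher with ORY in KO make the longest bar (53.3%, against 20.3% of all genes).

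Of the 6 comparisons of KO with WT, that on day 7 under DMSO called the most lysosomal genes, and these were more often lower than higher in KO. Of 45 genes tested, 17 were lower and 5 higher in KO + DMSO than in WT + DMSO, where 36% of all 11952 genes were called (19.1% lower and 16.9% higher). The 4 libraries of each group did not overlap in 19 of the 45 (31.7% of all genes). The median log2 fold change of the 45 was -0.08, against -0.02 over all genes. The 46 genes together made up 13288 to 13394 CPM in KO + DMSO libraries and 14526 to 14907 CPM in WT + DMSO libraries, without overlap. Sums of CPM, here and below, are weighted by the most abundant genes, such as Laptm4a (lower in KO + DMSO) and Cd63 (not called). Hydrolases were called lower in 6 of 14 and higher in 0, and export and transport genes lower in 3 of 6 and higher in 0, while in the V1 part 3 of 7 were lower and 2 higher.

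Atp6v0c, the proton-carrying ring subunit of V0, had the largest decrease. It had 20.8, 19.1, 20.96 and 21.3 CPM in KO + DMSO libraries, against 43.5, 47.9, 40.7 and 50.8 CPM in WT + DMSO libraries, a log2 fold change of -1.16 ± 0.09, adjusted p = 2.7e-10. Every KO + DMSO library lay far below every WT + DMSO library. Atp6ap1, an accessory protein of the pump on the X chromosome, had 195, 198, 195 and 201 CPM in KO + DMSO, against 292, 299, 319 and 299 CPM in WT + DMSO (log2 fold change -0.62 ± 0.06, adjusted p = 2.3e-09). Its KO + DMSO libraries lay close together and far under the lowest WT + DMSO library. In the V1 part, Atp6v1e1, a stalk subunit, had 297, 313, 290.1 and 326 CPM in KO + DMSO, against 351, 343, 387 and 362 CPM in WT + DMSO (log2 fold change -0.24 ± 0.06, adjusted p = 0.0016), and Atp6v1h (-0.27 ± 0.08) and the catalytic-head subunit Atp6v1b2 (-0.25 ± 0.06) were lower by similar log2 fold changes.

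Other pump subunits were higher in the same libraries, so that the V0 and V1 genes did not share 1 direction. Atp6v1g1 had 444, 462, 428 and 447 CPM in KO + DMSO, against 336, 367, 322 and 386 CPM in WT + DMSO (log2 fold change 0.34 ± 0.06, adjusted p = 9.9e-05). Its 4 KO + DMSO libraries all lay above the 4 WT + DMSO libraries. Atp6v0d1, which joins the V0 and V1 parts, had 100.5, 97.7, 114 and 128 CPM in KO + DMSO, against 76.2, 78.2, 93.4 and 102 CPM in WT + DMSO (log2 fold change 0.33 ± 0.10, adjusted p = 0.012), with the groups overlapping. Atp6v1d (log2 fold change 0.29 ± 0.05, adjusted p = 9.1e-05) was higher too. Summed over the listed subunits, V0 made up 904 to 1022 CPM in KO + DMSO and 862 to 1059 CPM in WT + DMSO, and V1 1849 to 1967 CPM in KO + DMSO and 1769 to 1872 CPM in WT + DMSO, with overlap in both.

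**Figure D4:**
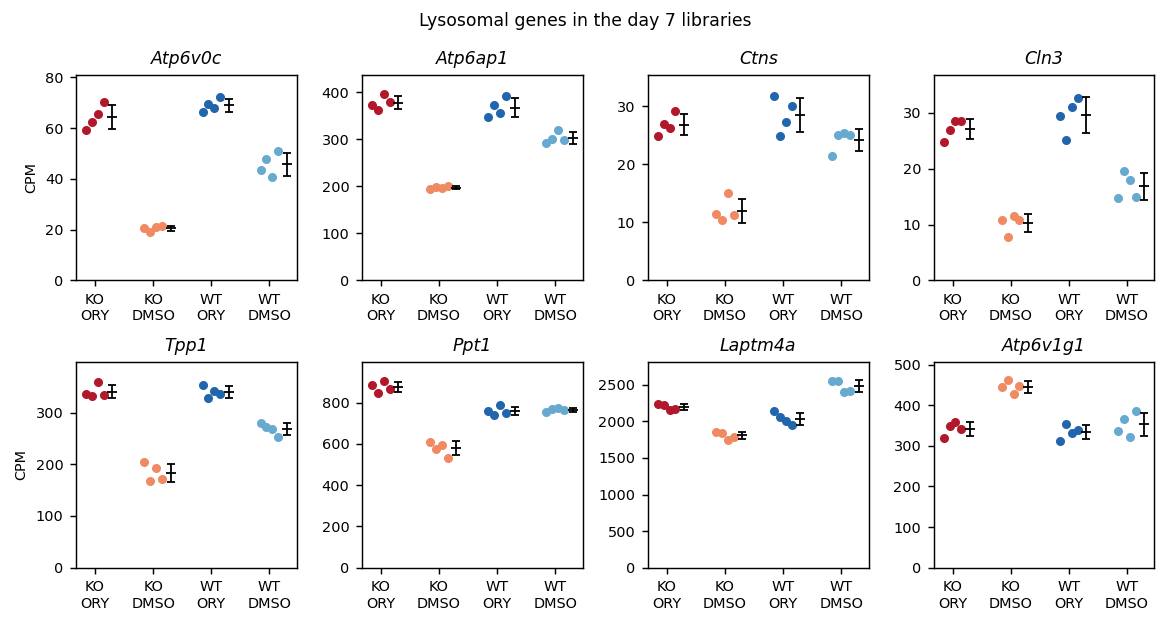
CPM of 8 lysosomal genes in each library of day 7 (points) with the group mean and SD beside them (n = 4 per group), for KO and WT cultures under ORY or DMSO. In 7 of the 8 panels the KO + DMSO libraries lie lowest, and in Atp6v1g1 they lie highest, at 428 to 462 CPM.

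Of 6 export and transport genes, 3 were lower in KO + DMSO. Ctns, the exporter of cystine, had 11.4, 10.4, 15.04 and 11.2 CPM in KO + DMSO, against 21.4, 25.00, 25.4 and 25.1 CPM in WT + DMSO (log2 fold change -1.02 ± 0.13, adjusted p = 4.2e-07). Cln3, a membrane protein whose loss causes a juvenile neuronal ceroid lipofuscinosis in humans, had 10.9, 7.85, 11.5 and 10.8 CPM in KO + DMSO, against 14.8, 19.7, 18.01 and 14.9 CPM in WT + DMSO (log2 fold change -0.75 ± 0.14, adjusted p = 1.5e-04). In both genes the highest KO + DMSO library stayed under the lowest WT + DMSO library. Slc17a5, the exporter of sialic acid, had 34.1, 33.5, 40.1 and 31.5 CPM in KO + DMSO, against 52.6, 48.1, 42.8 and 46.6 CPM in WT + DMSO (log2 fold change -0.45 ± 0.10, adjusted p = 8.9e-04), and did not overlap either. The cholesterol exporters Npc1 (0.05 ± 0.07) and Npc2 (-0.05 ± 0.06) and the calcium channel Mcoln1 (-0.05 ± 0.16) were not called (adjusted p = 0.63, 0.53 and 0.84).

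Among hydrolases the largest decrease was in Tpp1, a peptidase that trims tripeptides from protein ends, at 204, 168, 192 and 171 CPM in KO + DMSO, against 281, 272, 269 and 254 CPM in WT + DMSO (log2 fold change -0.55 ± 0.06, adjusted p = 1.4e-07). Ppt1 had 612, 578, 597 and 534 CPM in KO + DMSO, against 755, 769, 774 and 763 CPM in WT + DMSO (log2 fold change -0.40 ± 0.05, adjusted p = 4.1e-07). Neither gene overlapped between the groups. Gusb, a beta-glucuronidase (log2 fold change -0.47 ± 0.10, adjusted p = 8.2e-04), Acp2, an acid phosphatase (log2 fold change -0.43 ± 0.08, adjusted p = 1.7e-04, with 12.6% of its exonic length shared with an antisense gene), Lipa, the acid lipase (log2 fold change -0.27 ± 0.09, adjusted p = 0.021), and Fuca1, a fucosidase (log2 fold change -0.23 ± 0.06, adjusted p = 0.0055), were lower as well. The 14 hydrolases summed to 1292 to 1365 CPM in KO + DMSO and 1665 to 1694 CPM in WT + DMSO. The 8 other hydrolases, among them the heparan sulfate enzymes Naglu (-0.20 ± 0.16), Idua (0.03 ± 0.11) and Ids (0.16 ± 0.08), were not called.

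Membrane proteins divided. Laptm4a had 1856, 1843, 1749 and 1780.1 CPM in KO + DMSO, against 2558, 2547, 2403 and 2418 CPM in WT + DMSO (log2 fold change -0.46 ± 0.04, adjusted p = 3.9e-09). No library of one group reached the other. Lamp2 was lower (log2 fold change -0.24 ± 0.07, adjusted p = 0.0044), while Scarb2, the membrane receptor that brings glucocerebrosidase to lysosomes, had 47.3, 50.1, 48.4 and 48.4 CPM in KO + DMSO, against 36.9, 33.8, 38.3 and 43.9 CPM in WT + DMSO (log2 fold change 0.36 ± 0.09, adjusted p = 0.0031), without overlap, and Laptm4b was higher too (log2 fold change 0.28 ± 0.06, adjusted p = 0.0013). Lamp1 (0.07 ± 0.05) and Cd63 (-0.02 ± 0.05) were not called. Of the sorting receptors, M6pr, the cation-dependent mannose 6-phosphate receptor, was lower (log2 fold change -0.29 ± 0.06, adjusted p = 2.1e-04) and Igf2r, the larger receptor of the pair, had a log2 fold change of 0.14 ± 0.11, adjusted p = 0.38. Progranulin (Grn), whose product matures in lysosomes, had a log2 fold change of -0.05 ± 0.11, adjusted p = 0.73.

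Scaling by library size only moved the median of all genes to -0.12 in this comparison and gave 21 lysosomal genes lower and 4 higher. Fuca1 (adjusted p = 0.15) lost its call with GC and length correction. Atp6v0d1 (adjusted p = 0.096) lost its call with scaling by library size only. Lipa (adjusted p = 0.0502) lost its call with a fit to only the groups compared. Lipa lost its call without KO + DMSO libraries 3 or 4 or WT + DMSO libraries 1 or 2 (adjusted p = 0.0543 to 0.082) and Atp6v0d1 without KO + DMSO library 4 or WT + DMSO library 2 (adjusted p = 0.0596 to 0.060). In the same libraries the summed markers of neural stem cells and astroglia were 18642 to 19429 CPM in KO + DMSO and 14199 to 15006 CPM in WT + DMSO, with 6 of 13 tested higher and 4 lower. The 8 markers of the oligodendrocyte lineage, of which 1 of 4 tested was higher in KO, summed to 50.8 to 61.9 CPM in KO + DMSO and 31.4 to 36.7 CPM in WT + DMSO, while Sox10 was at 0 in all 48 libraries. Markers of dividing cells, 2 of 6 tested higher and 0 lower, summed to 149.9 to 181 CPM in KO + DMSO and 139 to 153 CPM in WT + DMSO, and those of neurons, 1 of 4 tested lower, to 383 to 451 CPM in KO + DMSO and 482 to 523 CPM in WT + DMSO. Their part in these results was not tested. The 12 microglia markers summed to 3.16 to 5.50 CPM in KO + DMSO and 2.13 to 7.56 CPM in WT + DMSO, of which only P2ry12 was high enough to be tested, and it was not called.

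Lysosomal mRNAs were more often higher than lower with ORY in KO cultures. With ORY 24 of 45 genes were higher in KO and 3 were lower, where 38.7% of all genes were called (20.3% higher and 18.3% lower). KO + ORY and KO + DMSO libraries did not overlap in 26 of the 45 (35% of all genes). The median log2 fold change was 0.26, against a value near 0 over all genes. Export and transport genes were called higher in 5 of 6, hydrolases in 8 of 14, and V1 subunits in 4 of 7, with 1 lower. The 46 genes summed to 15174 to 15631 CPM in KO + ORY and 13288 to 13394 CPM in KO + DMSO. This comparison shares its KO + DMSO libraries with the comparison of the genotypes under DMSO, so that values of both are given side by side and their opposite signs are no separate evidence.

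Atp6v0c had 59.3, 62.3, 65.4 and 70.3 CPM in KO + ORY, against 20.8, 19.1, 20.96 and 21.3 CPM in KO + DMSO (log2 fold change 1.65 ± 0.09, adjusted p = 1.5e-13). Cln3 had 24.7, 26.98, 28.5 and 28.5 CPM in KO + ORY, against 10.9, 7.85, 11.5 and 10.8 CPM in KO + DMSO (log2 fold change 1.41 ± 0.14, adjusted p = 6.3e-09). Ctns had 24.9, 26.9, 26.2 and 29.3 CPM in KO + ORY, against 11.4, 10.4, 15.04 and 11.2 CPM in KO + DMSO (log2 fold change 1.17 ± 0.13, adjusted p = 3.9e-08). In each of the 3 genes the KO + ORY libraries all lay above the KO + DMSO libraries. Atp6ap1 (log2 fold change 0.94 ± 0.06, adjusted p = 5.8e-13), Tpp1 (log2 fold change 0.89 ± 0.06, adjusted p = 1.7e-11), Lipa (log2 fold change 0.78 ± 0.09, adjusted p = 1.5e-07), Acp2 (log2 fold change 0.62 ± 0.08, adjusted p = 9.2e-07), Ppt1 (log2 fold change 0.59 ± 0.05, adjusted p = 3.1e-10) and Gusb (log2 fold change 0.49 ± 0.10, adjusted p = 5.5e-04) rose as well. The remaining 15 genes that rose had log2 fold changes of 0.19 to 0.43, among them Npc1 (0.31), M6pr (0.34), Lamp2 (0.30) and Laptm4a (0.28).

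Igf2r, Atp6v0d1 and Atp6v1g1 fell. Igf2r had 17.2, 20.4, 23.3 and 22.4 CPM in KO + ORY, against 32.8, 30.6, 26.6 and 28.5 CPM in KO + DMSO (log2 fold change -0.51 ± 0.12, adjusted p = 0.0011). Atp6v0d1 had 69.7, 78.9, 79.6 and 82.9 CPM in KO + ORY, against 100.5, 97.7, 114 and 128 CPM in KO + DMSO (log2 fold change -0.49 ± 0.10, adjusted p = 4.4e-04). Atp6v1g1 had 318, 348, 359 and 341 CPM in KO + ORY, against 444, 462, 428 and 447 CPM in KO + DMSO (log2 fold change -0.38 ± 0.06, adjusted p = 1.7e-05). All 3 were without overlap between KO + ORY and KO + DMSO. The summed markers of neural stem cells and astroglia, of which 6 of 13 tested rose and 5 fell, were 15616 to 15914 CPM in KO + ORY and 18642 to 19429 CPM in KO + DMSO, and their part was not tested. Npc2 (adjusted p = 0.066), Man2b1 (adjusted p = 0.11), Manba (adjusted p = 0.0571), Fuca1 (adjusted p = 0.67) and Sort1 (adjusted p = 0.13) lost their calls with GC and length correction. Manba (adjusted p = 0.0549), Fuca1 (adjusted p = 0.0585) and Sort1 (adjusted p = 0.0507) lost their calls with no filter. Manba (adjusted p = 0.0521) lost its call with a fit to only the groups compared. Sort1 lost its call without KO + DMSO libraries 1 or 3 or KO + ORY libraries 1, 3 or 4 (adjusted p = 0.0523 to 0.13) and Manba without KO + DMSO libraries 2 or 3 or KO + ORY libraries 1, 2 or 4 (adjusted p = 0.0556 to 0.14). Fuca1 lost its call without KO + DMSO library 3 or KO + ORY library 4 (adjusted p = 0.054 to 0.090).

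In WT cultures, Cln3, Atp6v0c and Lipa were the genes that rose most with ORY. Of 45, 10 were higher and 1 lower in WT + ORY than in WT + DMSO, where 15.1% of all genes were called (8.16% higher and 6.91% lower), and the median log2 fold change was 0.08. Cln3 had 29.5, 25.2, 31.1 and 32.7 CPM in WT + ORY, against 14.8, 19.7, 18.01 and 14.9 CPM in WT + DMSO (log2 fold change 0.80 ± 0.13, adjusted p = 1.0e-04). Atp6v0c had 66.5, 69.4, 67.9 and 72.4 CPM in WT + ORY, against 43.5, 47.9, 40.7 and 50.8 CPM in WT + DMSO (log2 fold change 0.59 ± 0.09, adjusted p = 2.7e-05). Lipa had 96.3, 92.6, 89.4 and 88.1 CPM in WT + ORY, against 68.9, 64.2, 61.5 and 49.3 CPM in WT + DMSO (log2 fold change 0.58 ± 0.09, adjusted p = 7.0e-05). The WT + ORY libraries lay above all WT + DMSO libraries in these 3 genes. Laptm4a went the other way, with 2139, 2058, 1999 and 1944 CPM in WT + ORY, against 2558, 2547, 2403 and 2418 CPM in WT + DMSO (log2 fold change -0.29 ± 0.04, adjusted p = 4.3e-05). The other genes higher in WT + ORY were Atp6v1a (0.35), Tpp1 (0.34), Npc1 (0.31), Atp6ap1 (0.28), Atp6v0b (0.28, with 11.8% of its exonic length shared with an antisense gene), Acp2 (0.27) and Cd63 (0.17). Markers of neural stem cells and astroglia (7 of 13 tested higher, 4 lower) summed to 15533 to 15797 CPM in WT + ORY and 14199 to 15006 CPM in WT + DMSO. Markers of dividing cells were higher in 3 of 6 tested and lower in 0 (median log2 fold change 0.79), summing to 158 to 187 CPM in WT + ORY and 139 to 153 CPM in WT + DMSO, without overlap. Of 4 markers of the oligodendrocyte lineage 1 was higher, and of 4 neuron markers 1 was lower. The part of these markers was not tested. Acp2 (adjusted p = 0.0574) lost its call with no filter. Cd63 (adjusted p = 0.062) lost its call with a fit to only the groups compared. Cd63 lost its call without WT + DMSO libraries 1 or 2 or WT + ORY libraries 2, 3 or 4 (adjusted p = 0.0581 to 0.12) and Acp2 without WT + DMSO library 1 or WT + ORY libraries 2 or 4 (adjusted p = 0.0542 to 0.085).

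The effect of ORY was more positive in KO than in WT for 14 of 45 genes and more negative for 1, by the test of the interaction, which called 17.9% of all genes (10% positive and 7.86% negative). The difference of the log2 fold changes, KO minus WT, was 1.06 ± 0.13, adjusted p = 1.1e-06 in Atp6v0c, where the fold changes were 1.65 in KO and 0.59 in WT. It was 0.93 ± 0.17, adjusted p = 3.3e-04 in Ctns (1.17 in KO and 0.24 in WT). Ctns had 31.8, 24.95, 27.3 and 29.98 CPM in WT + ORY, against 21.4, 25.00, 25.4 and 25.1 CPM in WT + DMSO, so that the WT groups overlapped while the KO groups were apart. In Atp6ap1 the difference was 0.66 ± 0.08, adjusted p = 1.1e-06, from 372, 362, 395 and 379.7 CPM in KO + ORY and 195, 198, 195 and 201 CPM in KO + DMSO, and 346, 373, 355 and 392 CPM in WT + ORY and 292, 299, 319 and 299 CPM in WT + DMSO. The KO + DMSO libraries stood below all the others in Atp6ap1. Laptm4a moved in opposite directions, by 0.28 ± 0.04 in KO and -0.29 ± 0.04 in WT (log2 difference 0.57 ± 0.06, adjusted p = 1.6e-07).

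The exception was Atp6v1g1 (log2 difference -0.30 ± 0.09, adjusted p = 0.016), which ORY lowered in KO, while in WT it had 312, 355, 331 and 339 CPM in WT + ORY, against 336, 367, 322 and 386 CPM in WT + DMSO, with overlap. Ppt1 (log2 difference 0.60 ± 0.07, adjusted p = 6.2e-07), Tpp1 (log2 difference 0.55 ± 0.09, adjusted p = 6.1e-05) and Cln3 (log2 difference 0.61 ± 0.19, adjusted p = 0.024) were also called in the interaction. The others were Atp6v1b2, Slc17a5, Acp2, M6pr, Atp6v1h, Lamp2 and Atp6v1e1, with differences of 0.27 to 0.43. Slc17a5 (adjusted p = 0.0507) lost its call with GC and length correction. Atp6v1g1 (adjusted p = 0.0548) lost its call with scaling by library size only. Slc17a5 (adjusted p = 0.064), Acp2 (adjusted p = 0.090) and Atp6v1e1 (adjusted p = 0.0593) lost their calls with no filter. Lamp2 lost its call without KO + DMSO library 4 or KO + ORY libraries 1 or 2 or WT + DMSO libraries 1 or 2 or WT + ORY libraries 2, 3 or 4 (adjusted p = 0.0517 to 0.063) and Slc17a5 without KO + DMSO libraries 1, 2 or 4 or KO + ORY libraries 1 or 3 or WT + DMSO libraries 1 or 2 or WT + ORY libraries 1, 2 or 4 (adjusted p = 0.0504 to 0.099). Atp6v1h lost its call without KO + DMSO libraries 1 or 3 or KO + ORY libraries 1, 2 or 4 or WT + DMSO libraries 1 or 2 or WT + ORY libraries 2, 3 or 4 (adjusted p = 0.052 to 0.095) and Cln3 without KO + DMSO library 2 or KO + ORY library 4 or WT + DMSO library 2 or WT + ORY library 2 (adjusted p = 0.0507 to 0.078). Acp2 lost its call without KO + DMSO libraries 1 or 3 or KO + ORY libraries 3 or 4 or WT + DMSO libraries 2, 3 or 4 or WT + ORY libraries 1, 2 or 3 (adjusted p = 0.0526 to 0.082) and Atp6v1e1 without WT + DMSO library 3 (adjusted p = 0.0503).

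With ORY in both genotypes, 1 of 45 lysosomal genes was called between KO and WT, where 1.15% of all genes were called (0.561% higher and 0.594% lower). KO + ORY and WT + ORY libraries did not overlap in 3 of the 45 (9.02% of all genes). Ppt1 had 885, 846, 906 and 867 CPM in KO + ORY, against 758, 741, 789 and 751 CPM in WT + ORY (log2 fold change 0.20 ± 0.05, adjusted p = 0.035). All 4 KO + ORY libraries lay above the WT + ORY libraries, but the call was lost with library size only (adjusted p = 0.087), with only the groups compared (0.063), and without any single library other than WT + ORY library 1 (0.0587 to 0.11). The genes with the largest differences under DMSO had smaller ones here, with log2 fold changes of -0.10 ± 0.08 in Atp6v0c, -0.09 ± 0.12 in Ctns, -0.13 ± 0.13 in Cln3, 0.04 ± 0.06 in Atp6ap1 and 0.00 ± 0.06 in Tpp1. The 95% intervals of these log2 fold changes were -0.27 to 0.07 in Atp6v0c and -0.38 to 0.11 in Cln3. The 46 genes summed to 15174 to 15631 CPM in KO + ORY and 14798 to 15269.6 CPM in WT + ORY, with overlap.

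Genes with and without the letters TCACGTG in the promoter were counted side by side on day 7. Of the 11 genes that had them in the promoter, 1 was lower and 1 higher in KO + DMSO than in WT + DMSO, and with ORY in KO 3 were higher and 2 lower. Of the 25 genes tested whose promoter lacked it, 13 were lower and 2 higher in KO + DMSO, and 16 were higher and 0 lower in KO + ORY. Of all genes 36% were called under DMSO and 38.7% for ORY in KO. Among the 6 genes whose sequences are printed above, Cln3 was lower in KO + DMSO and Atp6v0d1 higher, Cln3 and Atp6v1a rose and Igf2r and Atp6v0d1 fell with ORY in KO, and Mcoln1 and Atp6v0e were called in neither. No test was made of these counts, which were taken after the values were known.

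Other lysosomal genes, from lists chosen with earlier results of these data known, were counted beside the share of all genes called, which was 36% for KO + DMSO against WT + DMSO (19.1% lower and 16.9% higher) and 38.7% for ORY in KO (20.3% higher and 18.3% lower). Of 33 other lysosomal hydrolases and activators tested on day 7, 18 were lower and 3 higher in KO + DMSO (median -0.41), 18 higher and 1 lower with ORY in KO (median 0.42), 8 higher and 0 lower with ORY in WT, and 0 were called between KO + ORY and WT + ORY by edgeR. Ctsa, protective protein cathepsin A, had log2 fold changes of -1.42 ± 0.05, adjusted p = 9.3e-17 between the genotypes under DMSO and 1.88 ± 0.06, adjusted p = 2.5e-19 with ORY in KO, and Ctsb, cathepsin B, -1.17 ± 0.04, adjusted p = 1.9e-17 and 1.05 ± 0.04, adjusted p = 1.0e-16. Of 24 other lysosomal membrane proteins 4 were lower and 6 higher in KO + DMSO, and of 7 other V-ATPase subunits 2 were lower and 0 higher. Of 21 genes of nutrient sensing at the lysosome 2 were lower and 7 higher in KO + DMSO, and 6 lower and 1 higher with ORY in KO. The calls in these 3 lists, both directions together, were near or under the share of all genes, and no difference between lists was tested. In the nutrient sensing list, Nprl2, a subunit of the GATOR1 complex that restrains mTORC1, had log2 fold changes of -0.60 ± 0.09, adjusted p = 1.1e-05 between the genotypes under DMSO and 0.75 ± 0.09, adjusted p = 3.2e-07 with ORY in KO. Most called genes of that list went the other way from Nprl2 in both comparisons. Nprl2 had the smallest p of the list under DMSO, and Rheb, which fell, had the smallest with ORY in KO.

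At the other times fewer of the genes were called between KO and WT. On day 4, 0 of 44 genes were called, against 1.59% of all 11430 genes, by edgeR, with 14 of 44 under an unadjusted p of 0.05, and DESeq2 called 1 (higher). The KO and WT libraries did not overlap in 8 of the 44 (7.85% of all genes), 7 of them higher and 1 lower in KO. Atp6v0c had 32.2, 31.04, 28.9 and 38.4 CPM in KO and 25.3, 23.5, 29.7 and 26.6 CPM in WT (log2 fold change 0.32 ± 0.13, adjusted p = 0.27). Ctns had 11.7, 13.9, 12.9 and 10.7 CPM in KO and 10.2, 10.1, 8.74 and 9.39 CPM in WT (log2 fold change 0.35 ± 0.18, adjusted p = 0.42). Neither passed after adjustment. The 44 genes had a median log2 fold change of 0.04.

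On day 5, 9 of 45 genes were higher and 4 lower in KO, where 15% of all 12549 genes were called (6.22% higher and 8.76% lower). The genes that rose were 3 glycan-degrading hydrolases, 3 membrane proteins, 2 pump subunits and Grn, which encodes progranulin. Man2b1, an alpha-mannosidase, had 20.9, 21.5, 25.8 and 22.2 CPM in KO, against 9.62, 13.8, 14.9 and 17.7 CPM in WT (log2 fold change 0.67 ± 0.17, adjusted p = 0.0075). Fuca1 had 136, 122, 139 and 117 CPM in KO, against 93.9, 78.8, 96.01 and 80.5 CPM in WT (log2 fold change 0.55 ± 0.11, adjusted p = 6.1e-04). Grn had 50.5, 56.9, 55.6 and 55.3 CPM in KO, against 41.4, 42.2, 33.7 and 39.9 CPM in WT (log2 fold change 0.49 ± 0.08, adjusted p = 1.1e-04). In these 3 genes every KO library lay above every WT library. Scarb2 had 36.5, 39.1, 43.3 and 45.6 CPM in KO, against 33.1, 29.5, 31.5 and 29.7 CPM in WT (log2 fold change 0.43 ± 0.09, adjusted p = 0.0015). Laptm4a had 1280.0, 1357, 1387 and 1406 CPM in KO, against 1143, 1231, 1173 and 1294 CPM in WT (log2 fold change 0.17 ± 0.05, adjusted p = 0.029). Atp6v1e1 had 443, 463, 454 and 473 CPM in KO, against 378, 409, 390.5 and 421 CPM in WT (log2 fold change 0.20 ± 0.06, adjusted p = 0.014). The groups overlapped in Laptm4a and were apart in Scarb2 and Atp6v1e1. Gusb, Atp6v0d1 and Lamp1 were the others that were higher, with log2 fold changes of 0.46, 0.36 and 0.24.

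Aga, which cleaves the bond between asparagine and glycans, was lowest relative to WT on day 5, with 107, 110.0, 117 and 109.5 CPM in KO, against 138, 146, 152 and 151 CPM in WT (log2 fold change -0.40 ± 0.06, adjusted p = 2.3e-05). Cd63 had 2308, 2403, 2437 and 2478 CPM in KO, against 2802, 2769, 2773 and 2827 CPM in WT (log2 fold change -0.21 ± 0.03, adjusted p = 2.9e-05). Npc1 had 234, 233, 257 and 249 CPM in KO, against 286, 270.0, 280.2 and 288 CPM in WT (log2 fold change -0.21 ± 0.06, adjusted p = 0.012). None of the 3 overlapped between KO and WT. Atp6ap2, the second accessory protein of the pump, was lower as well (-0.15 ± 0.05). With summed libraries 3 of the 13 calls were kept, those of Aga (adjusted p = 0.022), Cd63 (adjusted p = 0.030) and Grn (adjusted p = 0.031), and the other 10 had adjusted p of 0.064 to 0.32. In these libraries the markers of the oligodendrocyte lineage, 2 of 4 tested higher in KO, summed to 154 to 174 CPM in KO and 88.2 to 111 CPM in WT, with Sox10 at 0, and their part was not tested. Lamp1 (adjusted p = 0.11) and Atp6ap2 (adjusted p = 0.80) lost their calls with GC and length correction. Atp6ap2 (adjusted p = 0.10) lost its call with scaling by library size only. Atp6ap2 (adjusted p = 0.17) lost its call with no filter. Laptm4a lost its call without KO libraries 2, 3 or 4 or WT libraries 1, 2 or 3 (adjusted p = 0.0506 to 0.098) and Atp6ap2 without KO libraries 2, 3 or 4 or WT libraries 1, 2 or 4 (adjusted p = 0.0516 to 0.10). Lamp1 lost its call without KO libraries 3 or 4 or WT libraries 2 or 4 (adjusted p = 0.0575 to 0.11) and Gusb without KO library 4 or WT library 4 (adjusted p = 0.0504 to 0.075). Atp6v1e1 lost its call without WT library 1 (adjusted p = 0.0547).

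On day 6, 4 of 45 genes were higher and 8 lower in KO, where 13.1% of all genes were called (6.69% higher and 6.45% lower). Manba, a beta-mannosidase, had 21.3, 20.2, 19.3 and 17.4 CPM in KO, against 38.00, 32.5, 36.3 and 30.7 CPM in WT (log2 fold change -0.82 ± 0.14, adjusted p = 6.4e-05). Ctns had 17.7, 17.6, 19.2 and 16.4 CPM in KO, against 24.4, 25.6, 24.9 and 32.4 CPM in WT (log2 fold change -0.60 ± 0.14, adjusted p = 0.0042). Both were without overlap. Idua, an iduronidase that acts on heparan and dermatan sulfate, had 14.7, 12.3, 14.4 and 10.1 CPM in KO, against 14.7, 18.8, 22.1 and 17.6 CPM in WT (log2 fold change -0.51 ± 0.14, adjusted p = 0.015), with overlap. Aga had 126, 119, 123 and 125 CPM in KO, against 146, 146, 133 and 134 CPM in WT (log2 fold change -0.18 ± 0.06, adjusted p = 0.0434). Lipa (-0.37), Npc2 (-0.24), Cd63 (-0.21) and M6pr (-0.19) were the other genes that were lower.

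The genes higher in KO on day 6 were Ids, Scarb2, Atp6v1b2 and Lamp1. Ids, the sulfatase that precedes Idua in the breakdown of heparan sulfate, had 77.6, 66.9, 59.8 and 63.5 CPM in KO, against 57.5, 46.7, 46.9 and 51.8 CPM in WT (log2 fold change 0.38 ± 0.09, adjusted p = 0.0022). Scarb2 had 57.1, 59.7, 66.9 and 69.5 CPM in KO, against 50.7, 48.9, 55.99 and 48.3 CPM in WT (log2 fold change 0.32 ± 0.09, adjusted p = 0.010). Atp6v1b2 had 113, 126, 119.6 and 124 CPM in KO, against 99.7, 96.1, 92.97 and 100.01 CPM in WT (log2 fold change 0.31 ± 0.06, adjusted p = 9.5e-04). None of these 3 overlapped between KO and WT. With summed libraries the calls of Cd63 (adjusted p = 0.036) and Manba (adjusted p = 0.025) were kept and the other 10 had adjusted p of 0.095 to 0.38. Cd63 (adjusted p = 0.069) lost its call with GC and length correction. Aga (adjusted p = 0.054) lost its call with scaling by library size only. Scarb2 (adjusted p = 0.0554) and Aga (adjusted p = 0.087) lost their calls with no filter. Aga (adjusted p = 0.061) lost its call with a fit to only the groups compared. Lamp1 lost its call without KO libraries 1, 2 or 3 or WT libraries 2 or 4 (adjusted p = 0.0529 to 0.19) and Lipa without KO libraries 1 or 3 or WT library 4 (adjusted p = 0.0577 to 0.099). Aga lost its call without KO libraries 1, 2, 3 or 4 or WT libraries 1 or 2 (adjusted p = 0.0582 to 0.11) and Scarb2 without KO library 4 (adjusted p = 0.0543). Idua lost its call without KO library 4 or WT library 3 (adjusted p = 0.073 to 0.077). Of 8 markers of dividing cells 5 were lower in KO on this day, summing to 146 to 154 CPM in KO and 189.8 to 205 CPM in WT. Their part in the result was not tested.

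**Figure D5:**
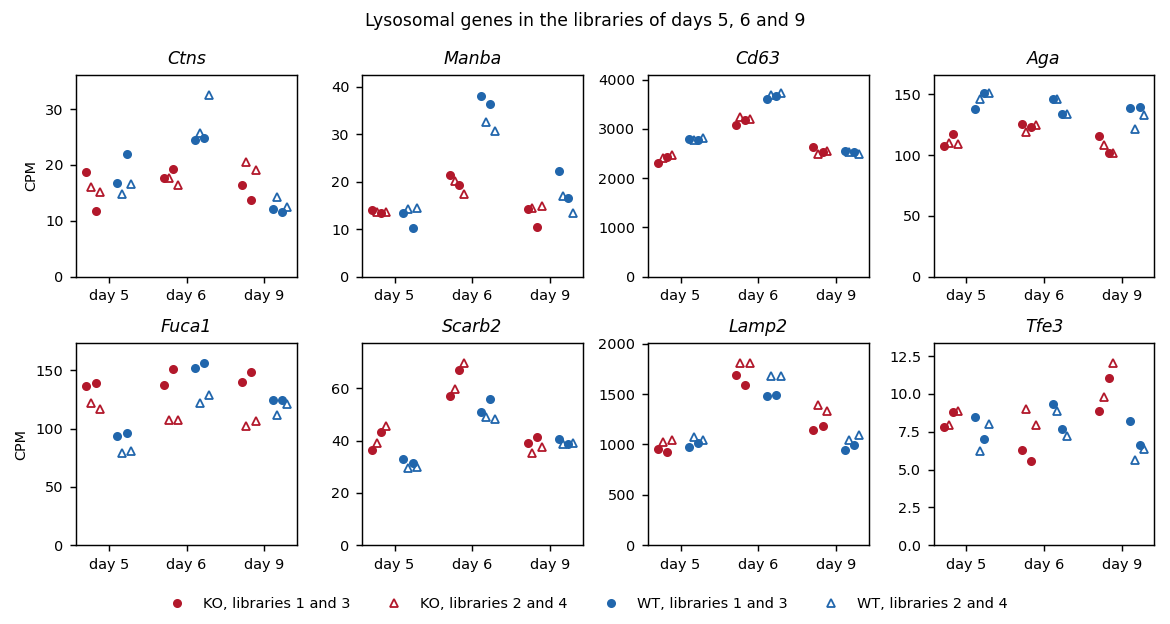
CPM of 8 lysosomal genes in each library on days 5, 6 and 9, with KO left of WT on each day, filled circles for libraries 1 and 3 and open triangles for libraries 2 and 4. In Fuca1 and Lamp2 the circles and the triangles separate within every group. In Manba on day 6 all KO libraries (17.4 to 21.3 CPM) lie below all WT libraries (30.7 to 38.0 CPM).

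On day 9, 10 of 45 genes were higher and 3 lower in KO, where 11.8% of all genes were called (6.35% higher and 5.43% lower). Besides Tfe3, the genes that rose were Ctns, Lamp2, Ids, Laptm4a and 5 parts of the pump. Lamp2 had 1145, 1389.9, 1184 and 1333 CPM in KO, against 943, 1045, 993 and 1094 CPM in WT (log2 fold change 0.31 ± 0.06, adjusted p = 5.3e-04). Ctns had 16.5, 20.6, 13.8 and 19.1 CPM in KO, against 12.2, 14.3, 11.5 and 12.5 CPM in WT (log2 fold change 0.45 ± 0.15, adjusted p = 0.0465). Laptm4a had 1486, 1488, 1533 and 1694 CPM in KO, against 1300.3, 1371, 1354 and 1479 CPM in WT (log2 fold change 0.17 ± 0.05, adjusted p = 0.027). The libraries of KO and WT were apart in Lamp2 and Laptm4a and overlapped in Ctns. Atp6v1e1 had 415, 431, 423 and 465 CPM in KO, against 332, 374, 345 and 386 CPM in WT (log2 fold change 0.27 ± 0.06, adjusted p = 0.0011). The V0 subunit Atp6v0e (0.27), the V1 subunits Atp6v1d (0.27) and Atp6v1c1 (0.20), Ids (0.26) and Atp6ap2 (0.20) were higher too.

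Igf2r had 28.5, 27.1, 27.2 and 18.99 CPM in KO on day 9, against 31.03, 35.2, 36.1 and 34.6 CPM in WT (log2 fold change -0.43 ± 0.11, adjusted p = 0.010). Aga had 116, 109, 102 and 102 CPM in KO, against 139, 121, 139 and 133 CPM in WT (log2 fold change -0.32 ± 0.06, adjusted p = 6.3e-04). Npc1 had 265, 254, 262 and 288 CPM in KO on day 9, against 321, 339.6, 286 and 339.6 CPM in WT (log2 fold change -0.26 ± 0.06, adjusted p = 0.0016). The highest KO library of Npc1 was just above the lowest WT library, and the other 2 genes were apart. With summed libraries 0 of the 13 calls were kept (adjusted p 0.061 to 0.28). Laptm4a (adjusted p = 0.0558), Ctns (adjusted p = 0.056) and Ids (adjusted p = 0.064) lost their calls with GC and length correction. Ctns (adjusted p = 0.071), Ids (adjusted p = 0.10) and Tfe3 (adjusted p = 0.0517) lost their calls with no filter. Laptm4a (adjusted p = 0.078), Ctns (adjusted p = 0.086), Ids (adjusted p = 0.061) and Atp6v1c1 (adjusted p = 0.079) lost their calls with a fit to only the groups compared. Ctns lost its call without KO libraries 1, 2 or 4 or WT libraries 1, 3 or 4 (adjusted p = 0.067 to 0.13) and Ids without KO libraries 1, 2, 3 or 4 or WT libraries 1, 2, 3 or 4 (adjusted p = 0.0552 to 0.098). Atp6v1c1 lost its call without KO library 3 or WT library 2 (adjusted p = 0.0581 to 0.10) and Laptm4a without KO library 4 or WT libraries 1, 2 or 3 (adjusted p = 0.0502 to 0.12). Igf2r lost its call without KO library 4 (adjusted p = 0.073) and Tfe3 without KO library 4 or WT library 2 (adjusted p = 0.0505 to 0.0599). The count of calls was 8 without KO library 4. On day 9 the markers of the oligodendrocyte lineage summed to 79.7 to 107 CPM in KO and 85.3 to 102 CPM in WT, with overlap. Of 8 markers of dividing cells 2 were higher in KO on day 9 (median log2 fold change 0.35), summing to 382 to 458 CPM in KO and 353 to 393 CPM in WT. Of 5 neuron markers tested 2 were higher and 1 lower, summing to 288 to 365 CPM in KO and 263 to 313 CPM in WT. Of 13 markers of neural stem cells and astroglia 2 were higher and 1 lower, with sums of 20556 to 21015 CPM in KO and 21127 to 21602 CPM in WT. The part of these markers was not tested. Aga was lower in KO in 3 of the 6 comparisons with WT and higher in none, and Scarb2 higher in 3 and lower in none. Ctns was lower in 2 and higher in 1.

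The difference between the genotypes changed with time in 9 genes from day 5 to day 9, by the interaction of genotype and time. It moved upward in 6 and downward in 3, against 5.98% and 3.23% of all genes (9.21% called in all). From day 5 to day 9, the log2 difference of KO and WT moved upward in Ctns (log2 difference 0.67 ± 0.21, adjusted p = 0.0416), Atp6v1d (log2 difference 0.42 ± 0.08, adjusted p = 6.9e-04) and Lamp2 (log2 difference 0.37 ± 0.08, adjusted p = 0.0038), and also in Atp6ap2 (0.35), Atp6v0e (0.30) and Cd63 (0.23). It moved downward in Fuca1 (log2 difference -0.50 ± 0.15, adjusted p = 0.035), Scarb2 (log2 difference -0.45 ± 0.13, adjusted p = 0.021) and Grn (log2 difference -0.43 ± 0.12, adjusted p = 0.015). Ctns had 18.7, 15.97, 11.7 and 15.2 CPM in KO and 16.8, 14.9, 22.00 and 16.5 CPM in WT on day 5. Atp6v1d, in the stalk of the pump, had 313, 326, 312 and 296 CPM in KO and 277, 235, 268 and 255 CPM in WT on day 9, and 308, 277, 274 and 296 CPM in KO and 323, 318, 323 and 319.8 CPM in WT on day 5. Its KO libraries lay above those of WT on day 9 and below them on day 5.

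The 3 genes that moved downward were called on day 5 and not on day 9. Fuca1 had 140.0, 102, 148 and 107 CPM in KO and 124, 112, 125 and 121 CPM in WT on day 9 (log2 fold change 0.05 ± 0.11, adjusted p = 0.80). Scarb2 had 38.9, 35.3, 41.3 and 37.7 CPM in KO and 40.7, 38.8, 38.6 and 38.9 CPM in WT (log2 fold change -0.03 ± 0.09, adjusted p = 0.88). Grn had 45.5, 52.9, 51.9 and 49.2 CPM in KO and 49.5, 50.8, 45.8 and 45.2 CPM in WT (log2 fold change 0.06 ± 0.08, adjusted p = 0.72). All 3 overlapped on day 9. Lamp2 on day 5 had 952, 1019.9, 928 and 1041 CPM in KO and 976, 1073, 1013 and 1046 CPM in WT, with overlap as well. With summed libraries 0 of the 9 calls were kept (adjusted p 0.083 to 0.39). Lamp2 (adjusted p = 0.0565), Fuca1 (adjusted p = 0.11), Grn (adjusted p = 0.32), Atp6v0e (adjusted p = 0.11) and Atp6ap2 (adjusted p = 0.13) lost their calls with GC and length correction. Ctns (adjusted p = 0.0561) lost its call with scaling by library size only. Scarb2 (adjusted p = 0.062) and Ctns (adjusted p = 0.064) lost their calls with no filter. Ctns (adjusted p = 0.0569) lost its call with a fit to only the groups compared. Fuca1 lost its call without KO day 5 libraries 1 or 3 or KO day 9 libraries 2 or 4 or WT day 5 libraries 2 or 4 or WT day 9 libraries 1 or 3 (adjusted p = 0.0594 to 0.092) and Ctns without KO day 5 libraries 2, 3 or 4 or KO day 9 libraries 2 or 4 or WT day 5 library 3 or WT day 9 libraries 1, 3 or 4 (adjusted p = 0.0519 to 0.12). Scarb2 lost its call without KO day 5 library 4 or WT day 5 library 4 (adjusted p = 0.0502 to 0.065) and Grn without WT day 5 library 3 (adjusted p = 0.0547).

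From day 6 to day 9, 6 genes moved upward and 1 downward, against 3.86% and 3.95% of all genes (7.81% called in all). The largest upward change of the difference was in Ctns (log2 difference 1.05 ± 0.21, adjusted p = 0.0013), which was lower in KO on day 6 and higher on day 9. Tfe3 (log2 difference 0.84 ± 0.25, adjusted p = 0.035), Lipa (log2 difference 0.67 ± 0.16, adjusted p = 0.0064), Atp6v1e1 (0.38), Atp6v0e (0.33) and Cd63 (0.22) moved the same way, and Npc1 (log2 difference -0.28 ± 0.08, adjusted p = 0.029) the other. Lipa had 124, 142, 114 and 164 CPM in KO and 87.5, 124, 92.7 and 137 CPM in WT on day 9, against 84.5, 92.6, 89.6 and 95.8 CPM in KO and 116, 108, 112 and 132 CPM in WT on day 6. On day 9 its values in both genotypes were higher in libraries 2 and 4 than in libraries 1 and 3. Npc1 had 172, 174, 171 and 190.3 CPM in KO and 175, 173, 169.7 and 181 CPM in WT on day 6, where the genotypes overlapped. With summed libraries 0 of the 7 calls were kept (adjusted p 0.11 to 0.41). Cd63 (adjusted p = 0.0595) and Npc1 (adjusted p = 0.16) lost their calls with GC and length correction. Npc1 (adjusted p = 0.094) and Tfe3 (adjusted p = 0.093) lost their calls with no filter. Npc1 (adjusted p = 0.0598) and Tfe3 (adjusted p = 0.063) lost their calls with a fit to only the groups compared. Tfe3 lost its call without KO day 6 libraries 1 or 3 or KO day 9 libraries 3 or 4 or WT day 6 libraries 1 or 2 or WT day 9 libraries 2, 3 or 4 (adjusted p = 0.055 to 0.098) and Npc1 without KO day 6 library 4 or KO day 9 libraries 2 or 3 or WT day 6 libraries 2 or 3 or WT day 9 libraries 2 or 4 (adjusted p = 0.0541 to 0.081). In the same test 5 of 8 markers of dividing cells moved upward and 0 downward (median log2 difference 0.82), as did 3 of 13 markers of neural stem cells and astroglia, with 2 downward, and their part was not tested. The replicate block also ended the call of Tfe3 (adjusted p = 0.051).

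Day 9 was also compared with day 5 within each genotype. In KO, 8 of 45 genes were higher and 3 lower on day 9. The share called (24.4%) was no larger than that of all genes (24.4%, 13.4% higher and 11% lower). Scaling by library size only, which moved the median of all genes to -0.10, gave 5 higher and 7 lower. In WT, 13 were higher and 6 lower (22.7% of all genes, 11.3% higher and 11.4% lower). Genes of 4 roles rose in WT, with 5 of 14 hydrolases, 3 of 6 membrane proteins, 2 of 6 export and transport genes and 2 of 3 sorting receptors higher, as was Grn, while V0 and V1 subunits were called lower in 4 of 12 and higher in 0.

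In KO, Sort1, a sorting receptor of the trans-Golgi network, had 65.8, 52.6, 58.1 and 69.2 CPM on day 9, against 49.4, 40.2, 49.01 and 49.4 CPM on day 5 (log2 fold change 0.40 ± 0.09, adjusted p = 0.0015). Ppt1 had 450.3, 332, 450.4 and 380.4 CPM on day 9, against 335, 298, 323 and 294 CPM on day 5 (log2 fold change 0.38 ± 0.08, adjusted p = 2.8e-04), and Lamp2, whose values in KO are given above, had a log2 fold change of 0.36 ± 0.06, adjusted p = 2.0e-05. The days were apart in Sort1 and Lamp2 and overlapped in Ppt1. Of the 3 genes that were lower on day 9, all of V0, Atp6v0a1 had 11.8, 12.1, 11.2 and 14.7 CPM on day 9, against 14.2, 14.3, 17.7 and 18.3 CPM on day 5 (log2 fold change -0.39 ± 0.15, adjusted p = 0.0476). Atp6v0b had 217, 201, 209.8 and 209 CPM on day 9, against 258, 258, 260.0 and 247 CPM on day 5 (log2 fold change -0.29 ± 0.05, adjusted p = 6.7e-05). Atp6v0d1 had 78.2, 64.7, 72.3 and 72.9 CPM on day 9, against 90.4, 87.5, 87.4 and 85.5 CPM on day 5 (log2 fold change -0.27 ± 0.08, adjusted p = 0.014). Only Atp6v0a1 overlapped between the days. On day 9 markers of the oligodendrocyte lineage were higher in 1 of 4 tested and lower in 2, summing to 79.7 to 107 CPM on day 9 and 154 to 174 CPM on day 5, and those of neural stem cells and astroglia higher in 3 of 13 and lower in 5, and their part was not tested. With summed libraries 6 of the 11 calls were kept, in Lamp2 (adjusted p = 0.017), Npc2 (adjusted p = 0.024), Ppt1 (adjusted p = 0.029), Atp6v0b (adjusted p = 0.026), Atp6ap2 (adjusted p = 0.019) and Sort1 (adjusted p = 0.039). Lamp2 (adjusted p = 0.11), Ids (adjusted p = 0.35), Atp6v0b (adjusted p = 0.36), Atp6v0d1 (adjusted p = 0.35), Atp6v1c1 (adjusted p = 0.63) and Atp6ap2 (adjusted p = 0.066) lost their calls with GC and length correction. Laptm4a (adjusted p = 0.10), Ids (adjusted p = 0.0575) and Atp6v1c1 (adjusted p = 0.33) lost their calls with scaling by library size only. Atp6v0a1 (adjusted p = 0.13) and Atp6v1c1 (adjusted p = 0.14) lost their calls with no filter. Atp6v0a1 (adjusted p = 0.071) and Atp6v1c1 (adjusted p = 0.083) lost their calls with a fit to only the groups compared. Atp6v1c1 lost its call without KO day 5 libraries 1, 2 or 3 or KO day 9 library 3 (adjusted p = 0.0544 to 0.24) and Atp6v0a1 without KO day 5 libraries 3 or 4 or KO day 9 libraries 1, 2 or 3 (adjusted p = 0.079 to 0.17). Laptm4a lost its call without KO day 9 library 4 (adjusted p = 0.0503).

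In WT, Igf2r had 31.03, 35.2, 36.1 and 34.6 CPM on day 9, against 21.2, 24.4, 20.4 and 23.9 CPM on day 5 (log2 fold change 0.61 ± 0.11, adjusted p = 1.4e-04). Naglu, a glucosaminidase of heparan sulfate, had 17.9, 19.8, 14.7 and 14.8 CPM on day 9, against 12.7, 14.7, 10.5 and 9.36 CPM on day 5 (log2 fold change 0.53 ± 0.15, adjusted p = 0.0090). Man2b1 had 18.7, 21.1, 17.6 and 23.5 CPM on day 9, against 9.62, 13.8, 14.9 and 17.7 CPM on day 5 (log2 fold change 0.50 ± 0.17, adjusted p = 0.033). Igf2r and Naglu were apart between the days and Man2b1 overlapped. Atp6v1d had a log2 fold change of -0.31 ± 0.06, adjusted p = 9.0e-05 from the values above and Ctns one of -0.49 ± 0.15, adjusted p = 0.016. Atp6v0e had 399, 402, 404 and 375 CPM on day 9, against 506, 511, 458 and 468 CPM on day 5 (log2 fold change -0.30 ± 0.05, adjusted p = 5.4e-05), without overlap. With summed libraries 6 of the 19 calls were kept, in Npc2 (adjusted p = 0.015), Ppt1 (adjusted p = 0.024), Atp6v0e (adjusted p = 0.0093), Atp6v1d (adjusted p = 0.014), Igf2r (adjusted p = 0.025) and Sort1 (adjusted p = 0.025). Manba (0.40 ± 0.15) lost its call with the replicate number as a block (adjusted p = 0.084). Of 8 markers of dividing cells 5 were lower on day 9, summing to 353 to 393 CPM on day 9 and 437 to 476 CPM on day 5, and their part was not tested. Npc1 (adjusted p = 0.12), Man2b1 (adjusted p = 0.0595), Manba (adjusted p = 0.070) and Atp6v1e1 (adjusted p = 0.051) lost their calls with GC and length correction. Man2b1 (adjusted p = 0.0508) and Manba (adjusted p = 0.074) lost their calls with scaling by library size only. Manba (adjusted p = 0.080) and Atp6v1e1 (adjusted p = 0.093) lost their calls with no filter. Manba (adjusted p = 0.10) lost its call with a fit to only the groups compared. Manba (adjusted p = 0.0502) lost its call with RLE size factors. Laptm4a lost its call without WT day 5 library 1 (adjusted p = 0.0507) and Man2b1 without WT day 5 libraries 1, 2 or 3 or WT day 9 libraries 2 or 4 (adjusted p = 0.058 to 0.15). Manba lost its call without WT day 5 libraries 1, 2 or 3 or WT day 9 libraries 1, 2 or 3 (adjusted p = 0.0544 to 0.24) and Npc1 without WT day 5 library 2 or WT day 9 library 2 (adjusted p = 0.0543 to 0.0551). Atp6v1e1 lost its call without WT day 5 libraries 2 or 4 or WT day 9 libraries 1 or 3 (adjusted p = 0.078 to 0.15) and Ctns without WT day 5 library 3 or WT day 9 library 3 (adjusted p = 0.0506 to 0.12). Grn lost its call without WT day 5 library 3 (adjusted p = 0.089) and Naglu without WT day 5 library 4 (adjusted p = 0.068).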

How the data were processed

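RNA from 48 samples of cultured adult dentate gyrus neural stem cells was extracted with TRIZOL and made into SMART-seq2 libraries, which carry neither strand nor molecular identifiers. According to the submitters' processing notes and the study's methods, the authors used bcl2fastq 2.17.1.14, trimmed reads with Trimmomatic 0.32, aligned them with STAR 2.5.2a to GRCm38 and counted uniquely mapped reads per gene. The deposited values are raw counts per gene, in 3 tables of 39017 gene IDs (day 4, days 5, 6 and 9, and day 7), of which 37693 were matched to a symbol in GENCODE vM21. Unique mapping leaves out reads that near-identical copies share, and without strand the counts of overlapping genes cannot be told apart (more than 10% of exonic length shared in Sgsh, Acp2 and Atp6v0b). Samples were grouped by the labels. The study calls the libraries of a group independent cultures and the labels only number them, so p-values measure the spread between these libraries, which may be technical.

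The 3 tables were fitted separately by edgeR 4.0.16 (R 4.3.3, limma 3.58.1), with TMM factors (0.926 to 1.04), filterByExpr (minimum count 10, minimum total 15), 1 coefficient per group and quasi-likelihood F tests, adjusted by the Benjamini-Hochberg method over the 11430, 12549 and 11952 genes tested. CPM are counts over the TMM-scaled library size. The 46 genes and all other lists were chosen with earlier results of these data known. Values of every library were printed for genes called in the most comparisons of KO with WT, for the up to 3 genes of largest change in each direction per comparison among those called, and for Tfeb and Tfe3. Values of Atp6ap1, Slc17a5, Tpp1 and Ppt1 on day 7 and of Atp6v0c and Ctns on day 4 were added after their values were seen, and up to 3 members of the other lists of smallest p could be named. 1 cell type marker is not reported here and was left out of its list. DESeq2 1.42.0 was an alternative. Counts were also simulated with each gene's mean level over all day 7 libraries and the library sizes of that day. The test of KO + DMSO against WT + DMSO, over 11763 genes, called 38% of genes raised 1.25-fold and 98% raised 2-fold. Of unchanged genes 0.0865% were called. The changed genes were drawn from the better expressed ones, so genes of few counts such as Tfeb and Sgsh were not covered, nor were decreases of these sizes.

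The groups share replicate numbers. Deviations from the group means of same-numbered libraries, over the 6402 or 6414 genes of mean log2 CPM at or above 4, correlated in every pair by more than 0.1 on day 6 (0.171 to 0.243), on day 9 (0.156 to 0.344), between KO + ORY and KO + DMSO (0.128 to 0.274) and between WT on days 9 and 5 (0.103 to 0.235). Over all genes tested they did not in any comparison (-0.0258 to 0.213). The numbers were taken to pair the libraries in these 4 comparisons, from the data and not from the labels. For these comparisons, and interactions of the days in them, the blocked fit is given beside a result where it ended a call, and for the others in the closing section.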

Additional observations from a re-analysis of the deposited data

Results flagged for a closer look

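In 262 groups of 4 libraries (142 for single genes and 120 for sums over a role), 14 had 1 library far from the other 3 by Dixon's test, where chance gives about 1 in 20. Among single genes, the low libraries were KO day 5 library 4 for Atp6v0b (247 CPM, against 258 to 260.0 CPM in the others), WT day 9 library 4 for Atp6v0e (375, against 399 to 404), WT + DMSO library 1 for Ctns (21.4, against 25.0 to 25.4), KO day 9 library 4 for Igf2r (18.99, against 27.1 to 28.5) and KO day 5 library 2 for Sort1 (40.2, against 49.0 to 49.4). The high ones were WT day 6 library 4 for Ctns (32.4 CPM, against 24.4 to 25.6 CPM), KO day 6 library 4 for Npc1 (190.3, against 171 to 174), WT day 9 library 1 for Scarb2 (40.7, against 38.6 to 38.9) and KO day 5 library 3 for Tfeb (1.22, against 0.471 to 0.558). Among sums, all high, were export and transport genes in KO day 9 library 4 (863 CPM, against 817 to 824 CPM), pump accessory genes in WT day 4 library 3 (634, against 570.3 to 580.0), sorting receptors in WT day 4 library 2 (248, against 241 to 242) and in KO + ORY library 3 (414, against 389 to 391), and V1 subunits in KO day 9 library 3 (1937, against 1856 to 1870).

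The effect of ORY differed between KO and WT in 15 genes, where the log2 difference of the effects, KO minus WT, was 1.06 in Atp6v0c, 0.93 in Ctns, 0.66 in Atp6ap1, 0.61 in Cln3, 0.60 in Ppt1, 0.57 in Laptm4a, 0.55 in Tpp1, 0.43 in Atp6v1b2, 0.42 in Slc17a5, 0.35 in Acp2, 0.33 in M6pr, 0.32 in Atp6v1h, 0.30 in Lamp2, 0.27 in Atp6v1e1 and -0.30 in Atp6v1g1. From day 5 to day 9 the difference of KO and WT changed by 0.67 in Ctns, 0.42 in Atp6v1d, 0.37 in Lamp2, 0.35 in Atp6ap2, 0.30 in Atp6v0e, 0.23 in Cd63, -0.43 in Grn, -0.45 in Scarb2 and -0.50 in Fuca1. From day 6 to day 9 it changed by 1.05 in Ctns, 0.84 in Tfe3, 0.67 in Lipa, 0.38 in Atp6v1e1, 0.33 in Atp6v0e, 0.22 in Cd63 and -0.28 in Npc1. Each passed edgeR's interaction test at an adjusted p under 0.05 with 4 libraries a group, and 0 of the 16 time differences did so with summed libraries.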

How the results depend on the processing

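Of the 160 calls, 160 were kept by DESeq2 and by the stricter filter, 159 with RLE size factors, 149 with library size only, 139 with no filter, 130 with GC and length correction, 130 of 145 with only the groups compared, 156 with the replicate block, 142 with the block and the GC and length correction, and 17 of 84 with summed libraries. No call changed direction in these. The replicate block ended the calls of Manba (WT day 9 against day 5), Tfe3 (genotype by time, day 9 to 6), and Atp6v0a1 (adjusted p = 0.073) and Atp6v1c1 (adjusted p = 0.077) in KO day 9 against day 5, and no other. Counts moved by over 1.5 times as follows. On day 4, GC and length correction gave 1 call, DESeq2 gave 1, and the block with GC and length correction gave 2. Summed libraries gave 3 on day 5, 2 on day 6, 0 on day 9, 0 for each of the 2 time interactions, 6 in WT and 6 in KO for day 9 against day 5, with the replicates of a group reduced to 2. For KO + ORY against WT + ORY, library size only and only the groups compared gave 0, GC and length correction 3, the replicate block 2, and the block with that correction 5. For WT + ORY against WT + DMSO the block with GC and length correction gave 18, for the interaction of day 9 to 5 GC and length correction gave 4, and for that of day 9 to 6 the block with GC and length correction gave 11. The cause was not tested. Leaving out 1 library gave 0 calls on day 4, 9 to 14 on day 5, 9 to 12 on day 6, 8 to 13 on day 9 (8 without KO library 4), 20 to 22 for KO + DMSO against WT + DMSO, 0 to 1 for KO + ORY against WT + ORY, 24 to 28 and 9 to 12 for ORY in KO and in WT, 10 to 15 for the ORY interaction, 7 to 10 and 5 to 8 for the time interactions, and 15 to 18 and 9 to 11 for day 9 against day 5 in WT and in KO. At this depth Tfeb could not be tested.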
